A study of Mus musculus with 6 samples.

Results

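The genes of sterol and fatty acid synthesis described here are 41 genes of mouse kidney, taken from the 54532 genes of the deposited table by their symbols. The rule names genes by function and uses no measured value, but the list was chosen with earlier results of these data known. Each gene was found in the table and passed the filter on low counts. By role they are 5 regulators of SREBP (sterol regulatory element binding protein), 18 enzymes of cholesterol synthesis, 7 genes of cholesterol transport, esterification and efflux, 5 genes of fatty acid synthesis and 6 genes of fatty acid elongation and desaturation. Other genes of these pathways were not analysed here or belong to a second list given near the end.

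RNA was sequenced from whole kidneys of 2 groups of male mice on a C57BL/6 background. KSPAPN mice carry the KsprtTA transgene, in which the Ksp-cadherin promoter drives the doxycycline-dependent activator rtTA in tubular epithelium, together with a TRE-driven adiponectin transgene. Control mice carry KsprtTA without the adiponectin transgene, and their deposited labels give the genotype as wild type. Both groups ate normal chow with doxycycline at 600 mg/kg for 4 days, so that activator and drug are shared by the groups and the induced transgene is not. Each group has 3 libraries, and each library is a pool of RNA from 3 mice, so replicate error here is the variation from pool to pool. The age of these mice is not stated. The labels name kidney as the tissue, while their extraction text mentions liver. The design asks how raised adiponectin in kidney tubules alters transcript levels in that organ.

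Cells make cholesterol from acetyl-CoA through mevalonate, isoprenoid phosphates, squalene and lanosterol, and they make fatty acids from acetyl-CoA through malonyl-CoA. SREBP-2, encoded by Srebf2, mainly drives cholesterol synthesis genes, and SREBP-1, encoded by Srebf1, mainly drives fatty acid synthesis genes. When sterols are low, SCAP escorts SREBP from the endoplasmic reticulum to the Golgi for cleavage. When sterols are high, the INSIG proteins hold SCAP and SREBP in the endoplasmic reticulum. Oxysterols also act on the LXR receptors, which drive the efflux transporters Abca1 and Abcg1 and Srebf1 itself.

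Promoter sequences are shown for the 5 of the 41 genes that passed an adjusted p of 0.05 in edgeR or in DESeq2, the genes on which the results turn. Each is the 250 bases before the transcription start of RefSeq on GRCm38.p6, written 5′ to 3′ along the gene's own strand. The gene bounds of GENCODE M21 reach further upstream, so part of each stretch, and nearly all of that of Fads2, lies within the gene there. Capitals mark the CCAAT box that NF-Y binds (CCAAT, or ATTGG on the opposite strand) and, in Cyp51, a stretch that matches the letters of a variant sterol regulatory element (TCACCTCAG).
Idi1, chr13:8885356-8885605 (plus strand): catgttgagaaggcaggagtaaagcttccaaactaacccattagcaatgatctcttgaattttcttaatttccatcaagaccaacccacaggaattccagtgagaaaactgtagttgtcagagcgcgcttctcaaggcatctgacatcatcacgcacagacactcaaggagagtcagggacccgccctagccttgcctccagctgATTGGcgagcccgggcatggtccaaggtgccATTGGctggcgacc
Cyp51, chr5:4104698-4104947 (minus strand): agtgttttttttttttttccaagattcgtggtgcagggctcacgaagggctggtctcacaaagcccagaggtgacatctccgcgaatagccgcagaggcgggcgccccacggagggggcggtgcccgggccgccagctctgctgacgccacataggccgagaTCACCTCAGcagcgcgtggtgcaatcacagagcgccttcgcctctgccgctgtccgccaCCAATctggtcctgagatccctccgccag
Soat1, chr1:156474329-156474578 (minus strand): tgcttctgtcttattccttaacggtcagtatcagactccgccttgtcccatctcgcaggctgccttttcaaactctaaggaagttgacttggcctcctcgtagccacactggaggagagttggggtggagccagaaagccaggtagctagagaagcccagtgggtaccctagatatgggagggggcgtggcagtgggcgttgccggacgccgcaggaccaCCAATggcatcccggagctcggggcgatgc
Acss2, chr2:155517793-155518042 (plus strand): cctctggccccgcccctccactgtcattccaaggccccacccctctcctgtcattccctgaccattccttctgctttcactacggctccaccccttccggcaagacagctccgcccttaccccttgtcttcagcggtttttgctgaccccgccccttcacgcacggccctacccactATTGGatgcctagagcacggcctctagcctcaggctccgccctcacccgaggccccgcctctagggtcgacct
Fads2, chr19:10101504-10101753 (minus strand): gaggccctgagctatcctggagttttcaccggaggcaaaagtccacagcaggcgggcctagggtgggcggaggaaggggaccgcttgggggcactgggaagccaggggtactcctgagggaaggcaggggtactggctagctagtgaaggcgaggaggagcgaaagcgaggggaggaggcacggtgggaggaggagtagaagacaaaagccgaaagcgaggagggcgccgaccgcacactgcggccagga
Idi1 held the box on the opposite strand at bases 45 to 41 and 14 to 10 before the start. Cyp51 held the variant element at bases 88 to 80 and a CCAAT box at bases 29 to 25 before the start. Soat1 held a CCAAT box at bases 30 to 26, Acss2 held one on the opposite strand at bases 73 to 69, and the Fads2 stretch held none of the motifs searched. By the GENCODE bounds, the boxes of Idi1 and Acss2 and the CCAAT box of Cyp51 lie within the gene.

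The search used both strands of windows of 300 bases, the 250 before and 50 after each start, and a RefSeq window was at hand for 32 of the 41 genes and for 11542 of the genes tested. The letters CCAAT were in any window of 25 of the 32 genes (78.1%) and of 42.2% of the genes tested. The E-box CACGTG, a site of SREBP-1 and of several other factors, was in 7 of 32 (21.9%) against 11.3%. The sterol regulatory element core TCACNCCAC was in 1 of 32 (3.12%), Hmgcs1, against 1.499%. The cAMP response element TGACGTCA was in 1 of 32, Elovl5, against 3.37%. The variant element was searched only after the Cyp51 stretch had been read, and it was in Cyp51 alone of the 32 and in 0.364% of the genes tested. These matches are a description of letters and not of bound sites, and the shares were not tested against each other.

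Over all 41 genes, the KSPAPN and Control libraries differed in few transcripts. Cyp51 and Idi1, both enzymes of cholesterol synthesis, fell in KSPAPN (2 of 41, 4.88%), and 0 genes rose at an adjusted p under 0.05 with edgeR. The background over all 16017 genes tested was 2.65% called in either direction, 2.25% lower and 0.393% higher. DESeq2 called 4 of the 41 lower (Cyp51, Idi1, Acss2 and Fads2) and 1 of the 41 higher (Soat1). Its background over all genes was 6.6% in either direction, 5.31% lower and 1.29% higher. After a correction of the counts for GC content and length, edgeR called 4 of the 41 lower (Cyp51, Idi1, Acss2 and Stard4) and 0 higher. The background over all genes was then 2.5% in either direction, 1.88% lower and 0.619% higher. Unadjusted, 14 of 41 genes (34.1%) had a p under 0.05 with edgeR, 9 of them lower and 5 higher in KSPAPN, against a background of 18.7%, of which 11.2% were lower and 7.52% higher. That background split evenly, at 9.16% lower and 9.21% higher, after that correction, 18.4% in all. The FPKM of the groups did not overlap for 12 of the 41 genes (29.3%), 9 lower and 3 higher in KSPAPN, and for 24.4% of the genes tested, 13.5% lower and 10.8% higher.

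The median log2 fold change (KSPAPN minus Control) of the 41 genes was −0.02, and it was 0.05 when libraries were scaled by total counts only. Over all genes tested these medians were 0.01 and 0.08. Of the 41 genes, 23 were below 0 and 18 above, and 48.1% of all genes tested were below 0. By role, the median was −0.11 for the SREBP regulators (−0.03 with total counts only), −0.08 for the cholesterol synthesis enzymes (−0.0091 with total counts only) and 0.28 for cholesterol transport, esterification and efflux (0.09 without KSPAPN replicate 1). It was −0.05 for fatty acid synthesis, where total counts gave 0.02, and 0.08 for elongation and desaturation. Single libraries moved these medians. With 1 library left out, the median ranged from −0.31 to −0.00073 for the SREBP regulators, from −0.12 to −0.04 for cholesterol synthesis and from −0.27 to 0.08 for fatty acid synthesis, each lowest without KSPAPN replicate 1. For elongation and desaturation it was lowest, at −0.0027, without KSPAPN replicate 2. The plot of log2 fold changes by role shows that genes on both sides of 0 occurred in every role.

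**Figure D1:**
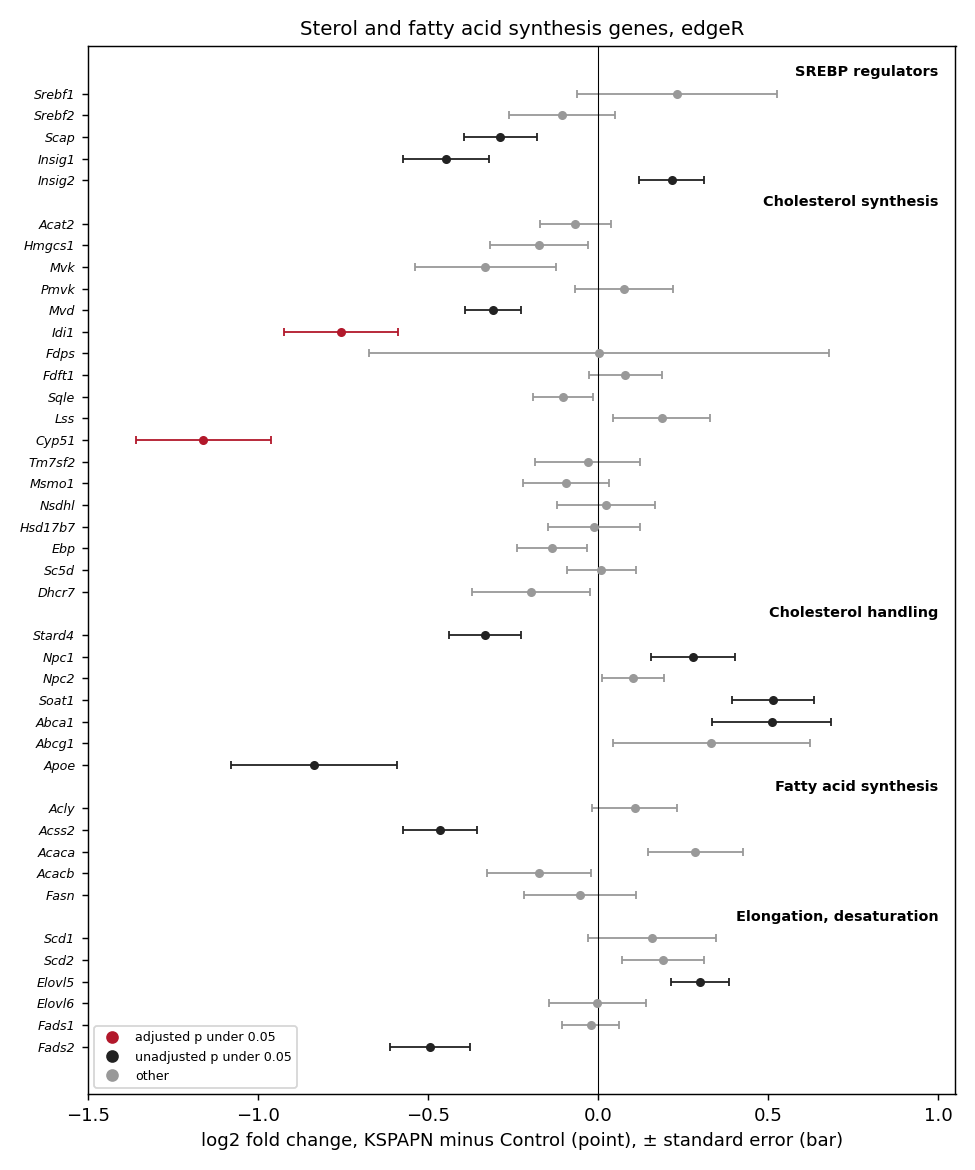
Log2 fold change (KSPAPN minus Control, edgeR) of the 41 genes, grouped by role, with the standard error as a bar. Cyp51 (−1.16) and Idi1 (−0.76), in red, are the 2 genes with an adjusted p under 0.05, black marks the other genes with an unadjusted p under 0.05, and Fdps, with 1 to 17 reads per library, has the widest bar.

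Between 17183358 and 20871173 reads were counted on genes in each library. Adipoq, which encodes adiponectin, had 2, 0 and 2 reads in Control replicates 1 to 3 and 24629, 17483 and 26811 in KSPAPN, so every library matched its label. KSPAPN replicate 1 stood apart among the 41 genes, with the highest value of all 6 libraries in 15 of them. The median deviation of the fatty acid synthesis genes from the Control mean was 0.33 on the log2 scale in KSPAPN replicate 1, and −0.32 and −0.21 in replicates 2 and 3. In the plot of the genes by library this column is redder than the other KSPAPN columns in 4 of the 5 roles. Cyp51, Idi1, Acss2 and Fads2 are blue in all KSPAPN columns. Insig1, Scap, Mvd, Stard4, Apoe and Ebp, among others, also lie below the Control mean in every KSPAPN library.

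**Figure D2:**
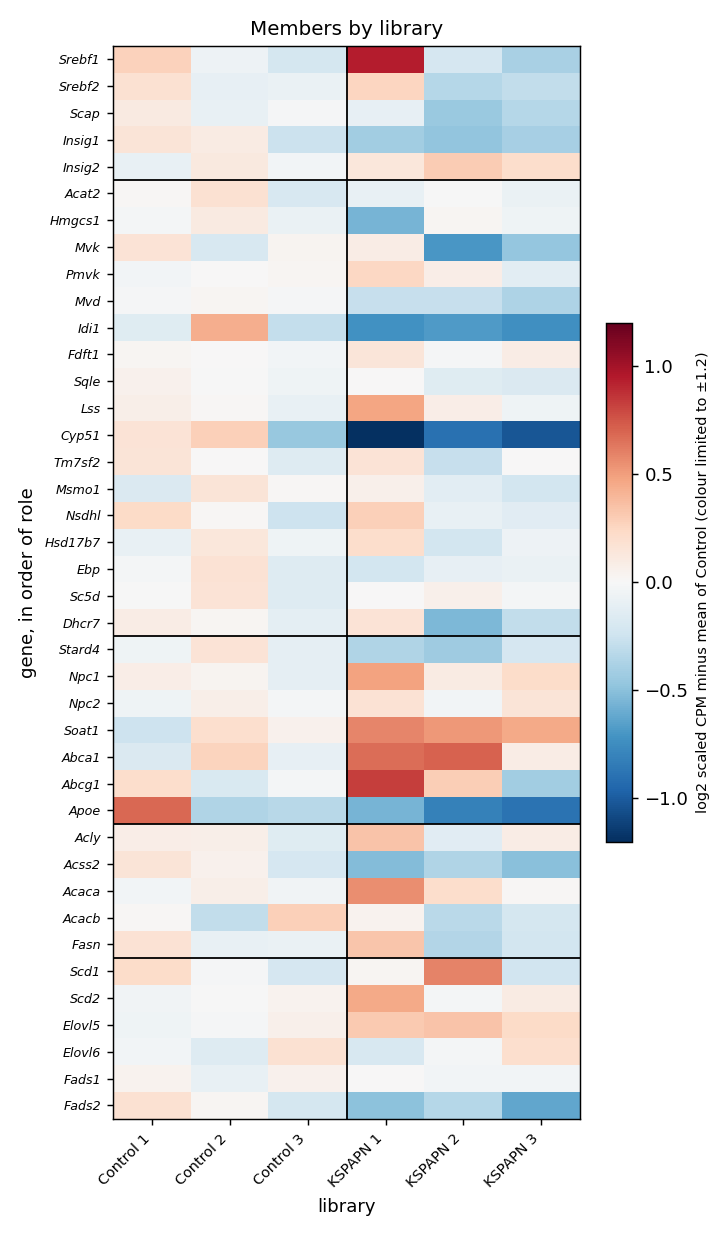
Log2 of read counts scaled by TMM to a common depth (CPM) (pseudocount 0.5) minus the mean of the 3 Control libraries, for 40 of the 41 genes in rows (Fdps is left out for its low counts) and the 6 libraries in columns. Red is above and blue below the Control mean, the colour stops at ±1.2, and horizontal lines part the roles. By FPKM, KSPAPN replicate 1 is the highest library in 15 of the 41 genes and the lowest in 6.

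Among the regulators of SREBP, 0 of 5 passed the adjusted threshold in either direction. Srebf1 had 13.5, 10.7 and 9.62 FPKM (deposited fragment counts scaled for gene length and library size) in Control replicates 1 to 3 and 21.1, 9.74 and 8.50 in KSPAPN. Its high mean in KSPAPN came from replicate 1 alone, and the groups overlapped. Its log2 fold change was 0.23 (SE 0.29, adjusted p = 0.726 by edgeR), and it was −0.29 without KSPAPN replicate 1. Srebf2, whose product is the main activator of cholesterol synthesis, had 19.5, 16.1 and 16.2 FPKM in Control and 20.2, 13.7 and 14.0 in KSPAPN. Here too KSPAPN replicate 1 was the highest library, and the log2 fold change of −0.11 (SE 0.16) had an adjusted p of 0.763 by edgeR. It was −0.31 (adjusted p = 0.123) without that library.

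Insig1, whose product retains SCAP and whose own gene is a target of SREBP, had 11.97, 11.5 and 8.89 FPKM in Control and 7.84, 7.73 and 8.03 in KSPAPN. All KSPAPN libraries were below all Control libraries and lay close together. This gave a log2 fold change of −0.45 (SE 0.13), with an adjusted p of 0.0957 by edgeR and 0.0504 by DESeq2. Its paralogue Insig2, which is not driven by SREBP in the same way, had 12.2, 14.0 and 12.6 FPKM in Control and 13.9, 16.1 and 14.9 in KSPAPN. The groups overlapped, and the log2 fold change was 0.22 (SE 0.10, adjusted p = 0.259 by edgeR). Scap had 15.9, 13.9 and 14.6 FPKM in Control and 13.6, 10.9 and 11.6 in KSPAPN, with no overlap. Its log2 fold change was −0.29 (SE 0.11, adjusted p = 0.184 by edgeR), and −0.18 (adjusted p = 0.190) after the correction for GC content and length. Of its exon bases, 13.2% overlap a gene on the opposite strand, whose reads cannot be told apart here because strand is not stated.

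Among the 18 enzymes of cholesterol synthesis, 2 fell, 0 rose and 16 did not pass the adjusted threshold. Cyp51 (ENSMUSG00000001467, chromosome 5, 4081145 to 4104746 on the minus strand of GRCm38) encodes the lanosterol demethylase that starts the conversion of lanosterol into cholesterol. It had 67.2, 73.5 and 43.8 FPKM in Control, from 5500, 5626 and 3396 reads. In KSPAPN the level was 20.6, 32.4 and 29.3 FPKM, from 2117, 2614 and 2684 reads. The highest KSPAPN library lay below the lowest Control library, with a mean of 61.5 ± 15.7 FPKM in Control and of 27.4 ± 6.13 in KSPAPN (SD, n = 3). The log2 fold change was −1.16 (SE 0.20), 55.3% lower, with an adjusted p of 0.0181 by edgeR and 5.12e-08 by DESeq2. With 1 library left out it ranged from −1.35 to −0.98. The edgeR call was lost without Control replicate 1 (adjusted p = 0.0960), without Control replicate 2 (0.0626) and without KSPAPN replicate 3 (0.0720), and held in the other 3 cases. Of all genes tested, the fits that lost it called 0.206%, 0.700% and 0.366% lower, against 2.25% with all libraries. Among all 16017 genes, Cyp51 had the 215th lowest log2 fold change and the 126th smallest p. In bulk RNA, fewer cells that express a gene and less of its RNA per cell cannot be told apart.

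Idi1 (ENSMUSG00000058258, chromosome 13, 8885501 to 8892451 on the plus strand) encodes the isomerase that sets the balance of the isoprenoid phosphates. It had 11.9, 17.9 and 10.7 FPKM in Control and 7.82, 8.26 and 7.87 in KSPAPN. The KSPAPN libraries were nearly equal and all below Control, where replicate 2 stood highest. The log2 fold change was −0.76 (SE 0.17), 40.8% lower, with an adjusted p of 0.0451 by edgeR and 0.0010 by DESeq2. With 1 library left out it ranged from −0.89 to −0.50, the latter without Control replicate 2. The edgeR call was kept only without Control replicate 3 (adjusted p = 0.0297), and the adjusted p reached 0.158 in the other cases. It was 0.0650 with total counts only. Of the stretches of 100 bases in the Idi1 transcripts, 21.9% are also found in Gm13502, Gm48574 or Gm35570, on which 30, 0 and 44 reads were counted over all libraries, so its count is uncertain where reads match more than 1 place.

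**Figure D3:**
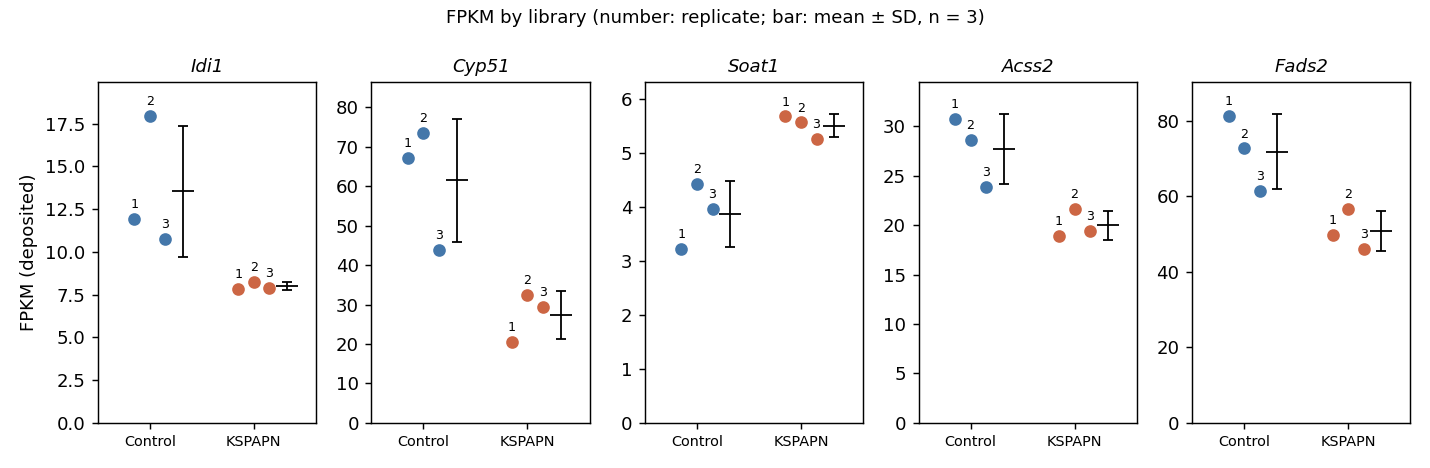
Deposited FPKM in each library (points, numbered by replicate) with the mean and SD (n = 3) for the 5 genes with an adjusted p under 0.05 in edgeR or DESeq2; axes start at 0. The groups do not overlap in any of the 5 panels, and Cyp51 has means of 61.5 in Control and 27.4 in KSPAPN.

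Mvd, the decarboxylase that makes isopentenyl pyrophosphate directly before Idi1, had 40.6, 41.8 and 40.4 FPKM in Control and 33.3, 34.0 and 31.5 in KSPAPN. The groups were tight and did not overlap. Its log2 fold change was −0.31 (SE 0.08, adjusted p = 0.0803 by edgeR), but −0.10 (adjusted p = 0.612) after the correction for GC content and length.

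The other 15 enzymes had log2 fold changes between −0.33 (Mvk) and 0.19 (Lss), all with overlapping groups and an unadjusted p of at least 0.05. In the steps to mevalonate, Acat2 was at −0.07 and Hmgcs1 at −0.17. Hmgcs1, the HMG-CoA synthase, had the highest level of the 41 genes, at 117 ± 7.77 FPKM in Control and 103 ± 22.2 in KSPAPN (SD, n = 3). The kinases Mvk and Pmvk were at −0.33 and 0.08. In the steps to lanosterol, the squalene synthase Fdft1 was at 0.08, the squalene epoxidase Sqle at −0.10 and the lanosterol synthase Lss at 0.19. None of these differed beyond the spread between libraries in this test. Without KSPAPN replicate 1, Mvk was at −0.58, Hmgcs1 at 0.0046, Pmvk at −0.0041 and Lss at 0.03.

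After Cyp51 in the pathway, the sterol reductase Tm7sf2 was at −0.03, and the demethylation enzymes Msmo1, Nsdhl and Hsd17b7 were at −0.09, 0.02 and −0.01. The isomerase Ebp was at −0.14, the desaturase Sc5d at 0.01 and the reductase Dhcr7, which can make cholesterol itself, at −0.20. Without KSPAPN replicate 1, Dhcr7 was at −0.41 and Nsdhl at −0.10. The lower level of Cyp51 thus stood beside downstream enzymes of which 0 of 7 passed the test. The plot of the enzymes in pathway order shows Cyp51 as the largest separation between the groups.

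Fdps, the farnesyl diphosphate synthase, could hardly be measured. It had 17, 1 and 13 reads in Control and 17, 10 and 9 in KSPAPN, a mean of 0.136 FPKM in each group. Its log2 fold change was 0.0025 with an SE of 0.68, so that no difference was detectable with these reads. Of the 100-base stretches in its transcripts, 21.4% recur in Gm43738, Gm3571 or Gm5873, and 26.7% of its exon bases overlap Gm43738 on the same strand. Acat2 (28.9%) and Acaca (23.7%) shared as much with other genes, and 18.3% of the exon bases of Fdft1 overlap Ctsb on the opposite strand.

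**Figure D4:**
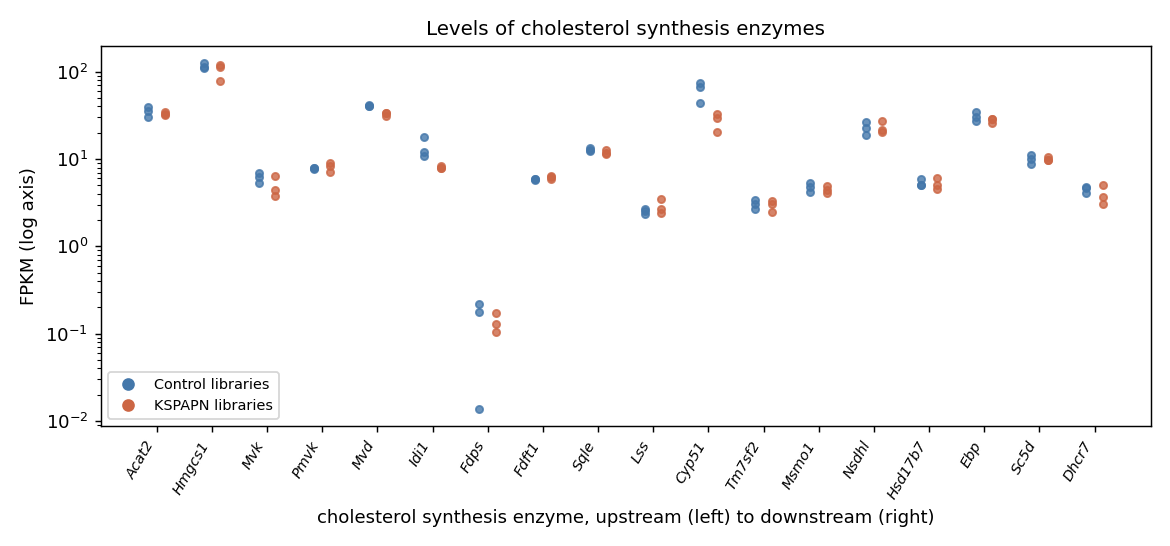
FPKM (log axis) of the 18 cholesterol synthesis enzymes in the 3 Control and 3 KSPAPN libraries, each point 1 library, in pathway order from left to right. Mvd, Idi1 and Cyp51 are the enzymes whose groups do not overlap, and Fdps lies lowest with 1 to 17 reads per library.

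Of the 7 genes of cholesterol transport, esterification and efflux, 0 passed the adjusted threshold with edgeR, while 2 lower and 3 higher genes had an unadjusted p under 0.05. Over all genes tested, 11.2% were lower and 7.52% higher at that unadjusted p. Soat1, the acyltransferase that stores cholesterol as esters, had 3.22, 4.43 and 3.97 FPKM in Control and 5.68, 5.57 and 5.27 in KSPAPN. All KSPAPN libraries were above all Control libraries. The log2 fold change was 0.51 (SE 0.12), with an adjusted p of 0.0522 by edgeR and 0.0091 by DESeq2. It ranged from 0.39 to 0.62 with 1 library left out, where edgeR called it in 0 cases (adjusted p from 0.0569 to 0.193). With total counts only edgeR called it (adjusted p = 0.0460). After the correction for GC content and length it was 0.39 (adjusted p = 0.0896 by edgeR).

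The efflux pump Abca1, an LXR target, had 2.70, 3.67 and 2.83 FPKM in Control and 4.79, 5.03 and 3.22 in KSPAPN. KSPAPN replicate 3 lay within the Control range. The log2 fold change was 0.51 (SE 0.17, adjusted p = 0.153 by edgeR). Its relative Abcg1 was at 0.33 (SE 0.29), and at −0.02 without KSPAPN replicate 1. Npc1, which moves cholesterol out of lysosomes, had 2.72, 2.63 and 2.38 FPKM in Control and 3.55, 2.78 and 2.996 in KSPAPN. The groups did not overlap, although KSPAPN replicate 2 was close to Control, and the log2 fold change was 0.28 (SE 0.12, adjusted p = 0.260 by edgeR) with KSPAPN replicate 1 and 0.18 without it. Its partner Npc2 was at 0.10 (SE 0.09).

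Apoe, the lipoprotein component, had 95.3, 46.1 and 46.9 FPKM in Control and 39.4, 33.9 and 31.7 in KSPAPN. Control replicate 1 was far above the other libraries, and the remaining Control libraries were still above all of KSPAPN. The fitted log2 fold change was −0.84 (SE 0.24, adjusted p = 0.102 by edgeR), and −0.40 (adjusted p = 0.224) without Control replicate 1. Stard4, a soluble carrier of sterols and a target of SREBP-2, had 11.4, 13.3 and 10.9 FPKM in Control and 9.02, 8.80 and 10.2 in KSPAPN. The groups did not overlap but came within 1 FPKM of each other, and the log2 fold change was −0.33 (SE 0.11, adjusted p = 0.126 by edgeR). After the correction for GC content and length it was −0.42, with an adjusted p of 0.0389. The median of the 7 genes, 0.28, was 0.09 without KSPAPN replicate 1.

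Of the 5 genes of fatty acid synthesis, 0 passed the adjusted threshold with edgeR. Acss2, which makes acetyl-CoA from acetate and is a known SREBP target, had 30.8, 28.6 and 23.9 FPKM in Control and 18.9, 21.7 and 19.4 in KSPAPN. The groups did not overlap, and the spread within Control was the wider. It differed by −0.47 on the log2 scale (SE 0.11), with an adjusted p of 0.0528 by edgeR and 0.0042 by DESeq2. Of its exon bases, 9.12% overlap genes on the opposite strand.

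The acetyl-CoA carboxylases make malonyl-CoA, Acaca for synthesis in the cytosol and Acacb at the mitochondrion, where malonyl-CoA restrains fatty acid import. Acaca had 1.69, 1.83 and 1.68 FPKM in Control and 2.53, 2.02 and 1.75 in KSPAPN. KSPAPN replicate 1 was the highest library and replicate 3 lay within Control, with a log2 fold change of 0.28 (SE 0.14, adjusted p = 0.307 by edgeR) and of 0.14 without KSPAPN replicate 1. Acacb had 4.06, 3.26 and 4.89 FPKM in Control and 4.07, 3.23 and 3.46 in KSPAPN. The groups overlapped widely, at a log2 fold change of −0.17 (SE 0.15, adjusted p = 0.587 by edgeR), and of −0.27 without KSPAPN replicate 1. The citrate lyase Acly was at 0.11 (SE 0.12), and at −0.0044 without KSPAPN replicate 1. Fasn, the fatty acid synthase, was at −0.05 (SE 0.16), and at −0.27 without KSPAPN replicate 1.

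Of the 6 genes of elongation and desaturation, 0 passed the adjusted threshold with edgeR. Fads2, the desaturase that opens the synthesis of long polyunsaturated fatty acids, had 81.3, 72.7 and 61.5 FPKM in Control and 49.8, 56.6 and 46.1 in KSPAPN. All KSPAPN libraries were below all Control libraries. The fitted log2 fold change was −0.49 (SE 0.12), with an adjusted p of 0.0568 by edgeR and 0.0078 by DESeq2. Its neighbour Fads1, the next desaturase of that route, had 28.3, 25.8 and 28.5 FPKM in Control and 27.1, 27.1 and 26.9 in KSPAPN. The KSPAPN libraries lay inside the Control range, and the log2 fold change was −0.02 (SE 0.08) as fitted and 0.05 both with total counts only and after the correction for GC content and length. The difference between the paralogues was not tested.

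Elovl5, which elongates polyunsaturated fatty acids between the steps of Fads2 and Fads1, had 18.3, 18.7 and 19.7 FPKM in Control and 23.2, 24.2 and 22.2 in KSPAPN. The groups were tight and did not overlap. Its log2 fold change was 0.30 (SE 0.08), with an adjusted p of 0.0953 by edgeR. Elovl6, which elongates saturated and monounsaturated fatty acids, was at −0.0027 (SE 0.14), and at 0.11 without KSPAPN replicate 1.

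The stearoyl-CoA desaturases make monounsaturated fatty acids. Scd1 had 42.2, 35.8 and 31.3 FPKM in Control and 36.1, 54.9 and 30.8 in KSPAPN. KSPAPN replicate 2 was the highest library and replicate 3 the lowest, and the log2 fold change of 0.16 (SE 0.19, adjusted p = 0.703 by edgeR) turned to −0.11 without KSPAPN replicate 2 and was 0.25 without KSPAPN replicate 1. Scd2 had 19.9, 20.3 and 21.004 FPKM in Control and 27.5, 20.2 and 21.9 in KSPAPN. KSPAPN replicate 1 was again the high library, and the log2 fold change of 0.19 (SE 0.12, adjusted p = 0.429 by edgeR) was 0.06 without it.

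How far these values moved with the settings is drawn for the 12 genes whose groups did not overlap. The direction of each was kept in every setting drawn, with adjusted calls in some settings and not in others.

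**Figure D5:**
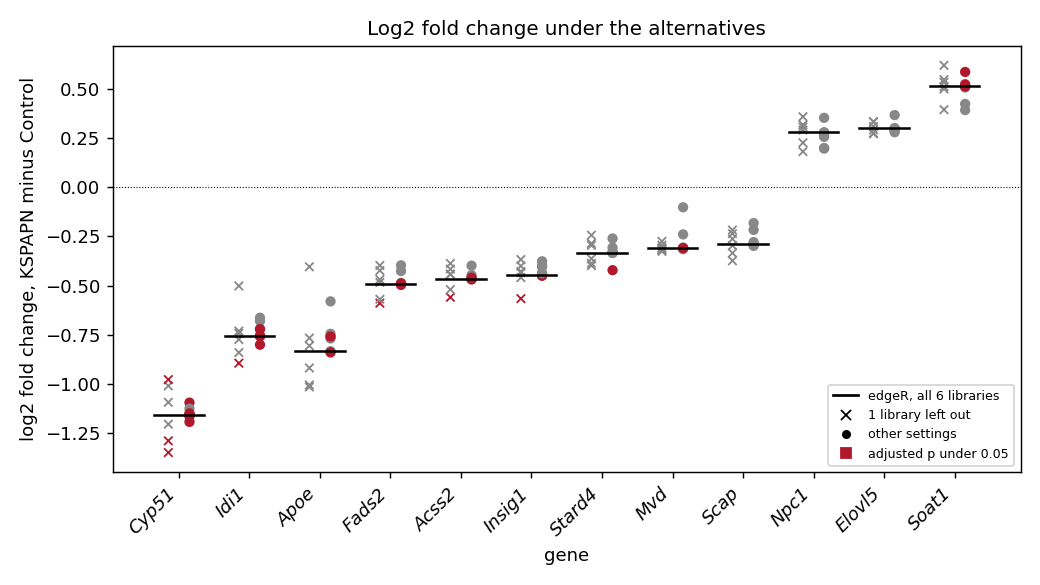
Log2 fold change (KSPAPN minus Control) of the 12 genes whose groups do not overlap in FPKM, with all 6 libraries in edgeR (line), with 1 library left out (crosses) and under other settings (dots); red marks an adjusted p under 0.05. Cyp51 lies between −1.35 and −0.98 with 1 library left out, and Apoe rises to −0.40 without Control replicate 1.

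A second list held 51 further genes of these pathways, of which 46 were tested. Their median log2 fold change was −0.08, 2 fell (4.35% of those tested) and 0 rose at an adjusted p under 0.05 with edgeR, against the same background of 2.25% lower and 0.393% higher. Unadjusted, 14 of these 46 genes (30.4%) had a p under 0.05 with edgeR, 11 of them lower and 3 higher. Over all genes the share was 18.7%, of which 11.2% were lower and 7.52% higher. DESeq2 called 5 of the 46 lower (Cyp7b1, Gpam, Aacs, Mcat and Mlxipl) and 1 of the 46 higher (Elovl2) after adjustment. It called 5.31% of all genes lower and 1.29% higher. The log2 fold change was −0.77 for Aacs, −0.49 for Mcat and 0.49 for Elovl2 (adjusted p = 0.0631, 0.0725 and 0.0872 by edgeR). After the correction for GC content and length these were −0.64, −0.29 and 0.44, and none was called. Cyp7b1, the oxysterol hydroxylase, had 55.7, 91.3 and 58.1 FPKM in Control and 11.2, 20.004 and 16.7 in KSPAPN. The groups were far apart, and the log2 fold change was −2.10 (SE 0.23, adjusted p = 0.0058 by edgeR). Gpam, which starts glycerolipid synthesis from fatty acids, had 22.4, 23.4 and 22.5 FPKM in Control and 13.8, 14.8 and 15.3 in KSPAPN. Both groups were tight, at a log2 fold change of −0.63 (SE 0.08, adjusted p = 0.0074 by edgeR). Both genes were called with any 1 library left out, between −2.28 and −1.83 for Cyp7b1 and between −0.66 and −0.58 for Gpam.

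Of the 8 LXR and ChREBP genes, 7 were below 0 and 0 passed the adjusted threshold. The largest change there was in Mlxipl, which encodes the glucose-responsive activator ChREBP. It had 49.9, 49.7 and 49.3 FPKM in Control and 35.7, 40.8 and 40.4 in KSPAPN, without overlap. Its log2 fold change was −0.34 (SE 0.09), with an adjusted p of 0.0687 by edgeR and 0.0187 by DESeq2. After the correction for GC content and length it was −0.24 (adjusted p = 0.266 by edgeR). Of the 7 genes of the isoprenoid branch, 0 passed, and the largest change was in Pdss1, which builds the side chain of coenzyme Q. It had 4.93, 6.33 and 5.52 FPKM in Control and 3.55, 4.60 and 3.78 in KSPAPN, at a log2 fold change of −0.49 (SE 0.14, adjusted p = 0.106 by edgeR).

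Marker genes of kidney and of other cell types were summed in each library as CPM scaled by TMM. The 10 proximal tubule markers summed to between 29640 and 39168 in Control and between 23895 and 31812 in KSPAPN. Kap had the most reads of the 10 and weighs most in these sums. It had 317007, 400399 and 268650 reads in Control and 254789, 335072 and 315192 in KSPAPN, and its groups overlapped. Sums without Kap were not computed. Of the 10 markers, 9 were below 0, and Slc22a6 and Slc7a13 fell. The 10 markers of the thick ascending limb and distal nephron summed to between 5072 and 5597 in Control and between 5121 and 6353 in KSPAPN, and Slc12a1 rose. In that list 6 of 10 were below 0, the median was −0.17, and 5 lower genes and 1 higher gene had an unadjusted p under 0.05. The shares over all genes tested were 11.2% lower and 7.52% higher by edgeR. The 6 glomerular markers, all above 0, summed to between 218 and 339 in Control and between 297 and 422 in KSPAPN. The part of these cell types in the lower Cyp51 and Idi1 and in the other differences was not tested.

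Of the markers of other tissues, the 8 hepatocyte genes summed to between 111 and 218 in Control and between 78.6 and 119 in KSPAPN, and 1 of them, Ttr, fell. Ttr had the highest mean level of the 8, at 82.5 FPKM. Of the 6 tested, 4 were below 0 and 2 above. Ahsg had 1, 0 and 1 reads in Control and 2, 14 and 15 in KSPAPN. Serpina3k had 0, 3 and 3 reads in Control and 0, 23 and 34 in KSPAPN, and neither passed the filter for testing. Albumin itself was at most 4.46 FPKM in any library. The 10 adipocyte genes summed to between 4.44 and 7.70 in Control and between 6.93 and 7.63 in KSPAPN. The 8 adrenal genes summed to between 8.86 and 9.18 in Control and between 9.11 and 15.9 in KSPAPN, with Cyp11b1 and Cyp11b2 listed at 0 in all libraries. The 8 macrophage genes, which accompany Apoe and Abca1 in many tissues, summed to between 133 and 137 in Control and between 111 and 150 in KSPAPN. None of them had an unadjusted p under 0.05 with edgeR, against 18.7% of all genes tested. Of these 8 genes, 4 were below 0 and 4 above. Csf1r, the highest of them in level, was at −0.19 (unadjusted p = 0.0563 by edgeR) and its groups did not overlap. The sums in Control replicates 1 to 3 were 133, 137 and 134, and the part of macrophages in the Apoe values was not tested.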

How the data were processed

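RNA from whole kidneys of 3 Control and 3 KSPAPN pools, each of 3 mice, was sequenced after enrichment of mRNA. The authors deposited raw counts of reads per gene, without normalization, and FPKM, scaled by the authors for gene length and library size, in 1 table with all 6 libraries. Per the labels' processing notes, STAR 2.5, TopHat, HTSeq 0.6.1, DESeq2 and edgeR were named without role or order. Genome build, annotation and strand setting of the counting are not given in the sources used. A gene's reads can therefore include those of overlapping genes on the other strand.

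Libraries were assigned to groups by their labels and table columns by their names. Symbols came from GENCODE M21 (GRCm38) for 54495 of 54532 identifiers and were not found for 37. Counts were compared with edgeR 4.0.16 (R 4.3.3). Libraries were scaled by TMM, and genes passed filterByExpr at a count of 10 and a total of 15. The quasi-likelihood test was two-sided, p-values were adjusted by Benjamini-Hochberg over 16017 genes, and a call needed an adjusted p under 0.05. The common dispersion was 0.0225. Library totals of 17183358 to 20871173 limit the precision of low counts, and counts carry no molecular identifiers. The replicates of each group differed beyond sampling noise, with a chi-square per gene of 11.0 to 35.9 between libraries, and none was a duplicate.

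The 41 genes and the lists of further pathway genes and markers were chosen with earlier results of these data known. Therefore no set test and no p over a list is given, and a list is described by counts and its median beside those of all genes tested. FPKM per library are given for genes called by edgeR, for those with an unadjusted p under 0.05 and no overlap between the groups, and for both members of 5 paralogue pairs. Other pathway genes are named where called by edgeR or DESeq2, or where they had the largest change in their list at a mean FPKM of at least 1. Abca1 was added after its values were seen. The results were recomputed with DESeq2 1.42.0, with RLE factors or total counts alone in edgeR, without the filter, with limma 3.58.1 on log2(FPKM + 1) and log2(FPKM + 0.1), after a correction for GC content and length, with replicate number as a block, and without each library in turn. The fits were tested on simulated data. Shared stretches of 100 bases were counted in GENCODE transcripts, and promoter windows came from RefSeq (GRCm38.p6). Python 3.11.15, pandas 2.3.3 and matplotlib 3.10.9 were used. Raw reads were not used here.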

Additional observations from a re-analysis of the deposited data

How the results depend on the processing

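With all 6 libraries and edgeR, 2 of the 41 genes were called lower and 0 higher. The lower count was 4 with DESeq2, 4 after the correction for GC content and length, 1 with total counts only, 6 without a filter on low counts, 0 with limma at either pseudocount and 2 with RLE factors. The higher count was 1 with DESeq2, 1 with total counts only and 2 without a filter. Over all genes, 3.53% were called lower and 1.02% higher without a filter, and 1.22% lower and 0.443% higher with total counts only. Lower calls over all genes were 5.31% with DESeq2, 1.88% after the correction for GC content and length and 2.17% with RLE factors. With limma they were 0.737% at a pseudocount of 1 and 0.681% at 0.1. With 1 library left out, the lower count ranged from 0 to 5. It was 0 when Control replicate 1, Control replicate 2 or KSPAPN replicate 3 was omitted, 5 when Control replicate 3 was, and 1 when KSPAPN replicate 1 or 2 was. Of all genes, the fits with 0 called only 0.206%, 0.700% and 0.366% lower, in that order. The share was 1.64% without Control replicate 3, 3.47% without KSPAPN replicate 1 and 1.47% without KSPAPN replicate 2. Genes higher at an unadjusted p under 0.05, 5 as fitted, were 3 with DESeq2 and with limma at either pseudocount, and 2 to 5 with 1 library left out. Of the further pathway genes, 2 lower and 0 higher as fitted, DESeq2 called 5 lower and 1 higher, and the fit without a filter 8 lower and 1 higher. The count of those higher was 0 to 1 with 1 library left out, and 1 without Control replicate 3, a fit that called 0.236% of all genes higher.

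Replicate numbers are shared between the groups, and whether they pair the pools is not stated and was not tested. The correlations of deviations from the group means between same-numbered libraries were 0.084, 0.275 and 0.201. Between libraries of different numbers they ran from −0.285 to 0.085, the highest for KSPAPN replicate 1 with Control replicate 3. With the replicate block, 6 of the 41 genes were called lower and 1 higher, and of the further pathway genes 5 lower and 1 higher. The same fit called 4.40% of all genes lower and 1.399% higher.

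The median of cholesterol transport, esterification and efflux, 0.28, ranged from 0.086 to 0.35 with 1 library left out, the lowest without KSPAPN replicate 1. The median of elongation and desaturation, 0.08, was 0.14 with total counts only and ranged from −0.0027 to 0.11 with 1 library left out, where Control replicate 2 gave 0.04 and KSPAPN replicate 2 the lowest. The medians of the other roles kept within the spread between libraries under all alternatives, and that of fatty acid synthesis changed sign among them.

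Of the 41 genes, 25 kept their sign under all alternatives and 16 did not, and none of the 16 had an unadjusted p under 0.05. With 1 library left out, the ranges were −0.29 to 0.46 for Srebf1, −0.16 to 0.027 for Acat2, −0.29 to 0.0046 for Hmgcs1, −0.0041 to 0.17 for Pmvk and −0.52 to 0.52 for Fdps. They were −0.12 to 0.079 for Tm7sf2, −0.10 to 0.14 for Nsdhl, −0.13 to 0.082 for Hsd17b7, −0.065 to 0.094 for Sc5d and −0.017 to 0.61 for Abcg1. They were −0.0044 to 0.22 for Acly, −0.27 to 0.076 for Fasn, −0.11 to 0.33 for Scd1, −0.11 to 0.11 for Elovl6 and −0.067 to 0.0061 for Fads1. After the correction for GC content and length, sign changes gave 0.022 for Acat2, 0.041 for Tm7sf2, 0.0022 for Ebp, −0.086 for Sc5d and 0.051 for Fads1. With total counts only they gave 0.0024 for Acat2, 0.043 for Tm7sf2, 0.063 for Hsd17b7, 0.023 for Fasn, 0.061 for Elovl6 and 0.046 for Fads1, and without the filter −0.0014 for Fdps. Over all single values under the alternatives, further pathway genes included, 567 kept direction and side of the threshold, 26 gained a call, 13 lost one and 37 changed sign. The causes of these shifts were not tested. Fdps had 1 to 17 reads per library, and whether depth or shared sequence limits its count was not tested.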
